A study of Mus musculus with 4 samples.

Results

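The insulin-like growth factor (IGF) axis was followed in mammary tissue as 10 genes, chosen by name: the ligands *Igf1* and *Igf2*, the receptors *Igf1r* and *Igf2r*, and the binding proteins *Igfbp2* to *Igfbp7*. These are 10 of the 30506 loci in the authors' table, and all 10 were found. Each was taken at the row with its name and, for *Igf1r*, which has 2 rows, at the row of higher mean value. Poly(A) RNA was sequenced from the mammary gland of 4 virgin mice aged 2 months, 2 with intact miR-21 (miR-21+/+) and 2 that lacked it (miR-21-/-), all of the mixed background labelled 129SV::FVB/N::C57BL/6. The labels name no Cre driver or cell type for the miR-21-/- genotype, so a difference cannot be assigned to epithelium, fat pad or endocrine organs. For each gene the table holds a single FPKM value per genotype (fragments counted on a gene, divided by its exon length and by the total mapped) in which the authors combined both mice. How far mice of a genotype differ cannot be seen, so every difference is a description with no replicate check or test. Where a pair of FPKM values, ratios or shares is given without group names, miR-21+/+ comes first and miR-21-/- second.

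IGF1 and IGF2 are small secreted growth factors related to insulin. Both act through the tyrosine kinase IGF1R, while IGF2R, the mannose 6-phosphate receptor, takes up IGF2 for degradation. In blood and tissue fluid the ligands are held by IGF binding proteins, which limit or prolong their access to the receptor and are themselves cut by proteases. In the mammary gland, growth hormone acts on the stroma to raise IGF1, and IGF1 in turn drives growth of terminal end buds and ducts. STAT5, the factor that led the study to miR-21, transmits the growth hormone and prolactin signals.

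The microRNA that the miR-21-/- mice lack is shown because its seed defines the letters searched in the 10 genes. The capitals mark the seed, bases 2 to 8, and the sequence is that of RefSeq for GRCm38.p6.
mmu-miR-21a-5p: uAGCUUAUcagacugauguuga
A transcript that pairs with the whole seed carries ATAAGCT. These letters occurred in 0 of the 10 longest annotated 3′ UTRs of the IGF axis genes (mm9, GENCODE), against 6.09% of the 19915 genes searched. The 3′ UTRs ranged from 197 nt in *Igf1r* to 6347 nt in *Igf1*, with 4445 nt in *Igfbp5*. That of *Igf1r* is short in the annotation, while its locus in the table runs 7111 bases beyond the annotated end, and no match lay there either. When matches to bases 2 to 7 followed by an A were also counted, the members still held 0, against 9.58% of all genes. The absence of these letters says nothing about indirect effects of miR-21 or about sites elsewhere in the transcripts.

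In miR-21+/+ glands the 10 levels spanned a range of 57.7-fold in FPKM, a measure per length that allows genes to be set side by side. The order from high to low was *Igfbp7*, *Igfbp4*, *Igfbp5*, *Igfbp6*, *Igf1*, *Igfbp3*, *Igf2r*, *Igfbp2*, *Igf2* and *Igf1r*. In miR-21-/- glands the order was the same except at the bottom, where *Igf1r* stood above *Igf2*. Neighbours in this order cannot be separated statistically, since no spread is known. All 10 genes exceeded 5 FPKM in at least one genotype, the minimum used in the study, and 9 exceeded it in both, with *Igf2*, which passed it through miR-21+/+ alone, the exception.

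**Figure D1:**
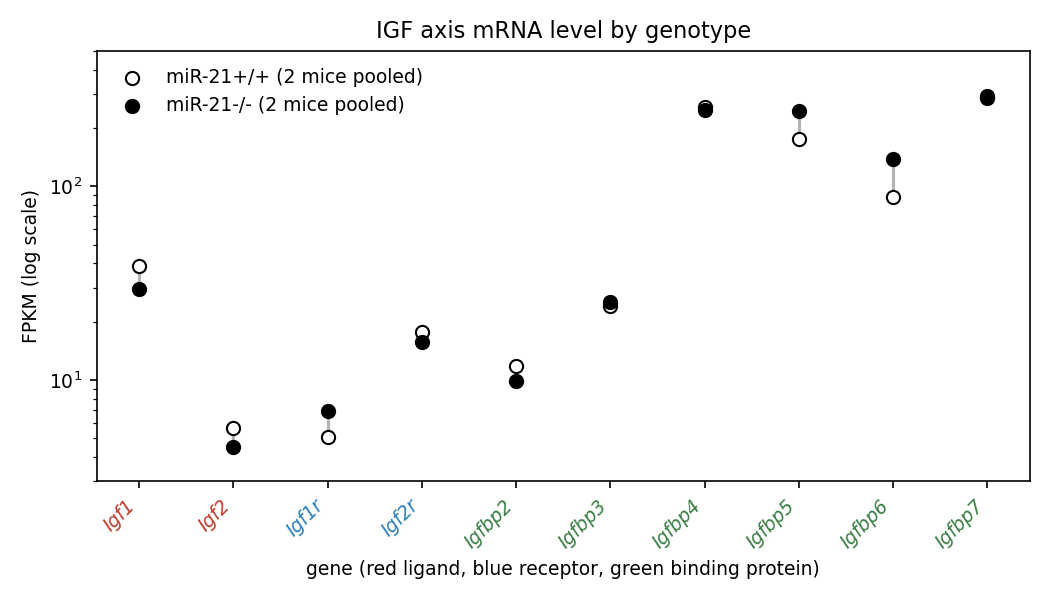
FPKM of the 10 IGF axis genes on a log scale, with open circles for miR-21+/+ and filled circles for miR-21-/- glands, each circle 1 value in which the authors combined 2 mice. The open and filled circles of *Igfbp4* overlap, as do those of *Igfbp7*, while *Igfbp6* stands at 87.7 and 139 FPKM.

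Compared between genotypes, 4 members were higher in miR-21-/- glands (43.1% of the 9713 named loci above the same minimum) and 6 were lower (56.9% of the named loci), but with both columns scaled to equal sums over all loci 1 was higher and 9 were lower. Of the 6, *Igf2* passed the minimum through miR-21+/+ alone, so among genes above it *Igf2* had to be lower. The median log2 ratio was −0.04 for the members and −0.03 for the named loci. Scaling to equal sums over all loci shifts every log2 ratio by −0.63, and scaling over named loci shifts them by 0.10. The sums were 759295 and 1175600 FPKM over all loci, but 380567 and 355385 FPKM over named loci. The higher sum in miR-21-/- glands therefore lies in loci without a gene name. Ratios between members, which no scaling alters, are given as well. At 1.5-fold or more, 1 member (*Igfbp6*) was higher in miR-21-/- glands, against 3.85% of the named loci, and 0 were lower, against 4.32% (8.17% in either direction). At 2-fold or more the counts were 0 higher and 0 lower, against 1.25% and 1.47%. The median absolute log2 ratio was 0.29 for the members and 0.13 for the named loci. No more is read from 1 gene of 10 past the fold. In whole glands, fewer cells of a type and less RNA per cell cannot be told apart.

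**Figure D2:**
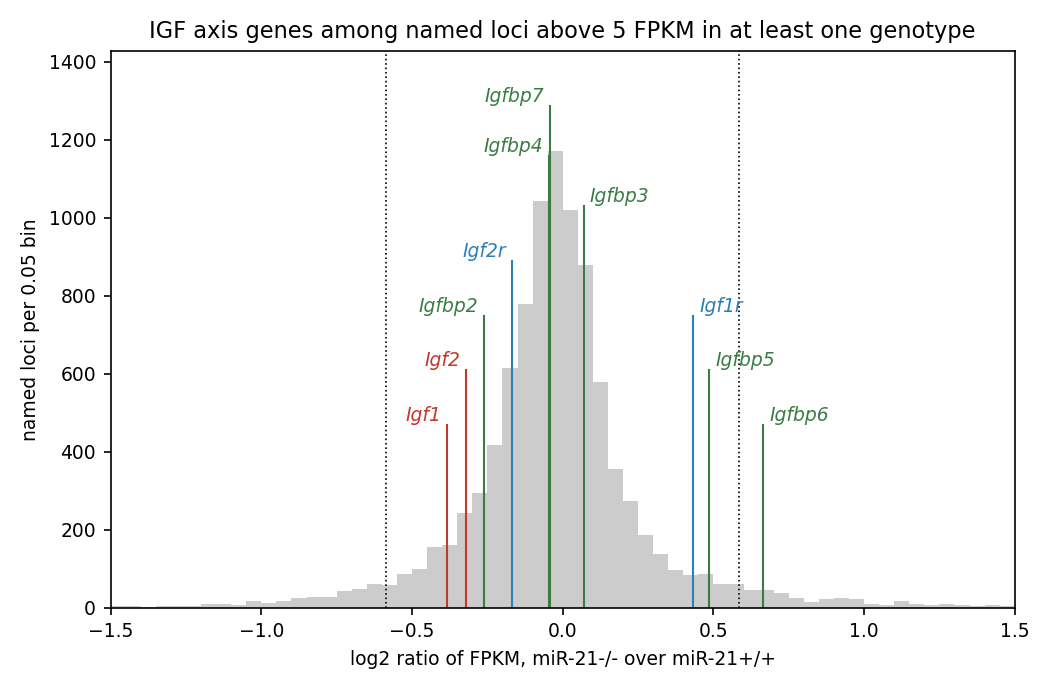
Log2 ratio of FPKM, miR-21-/- over miR-21+/+, for the 9713 named loci above 5 FPKM in at least one genotype (grey, loci per bin of 0.05) and for the 10 IGF axis genes (lines in red for ligands, blue for receptors and green for binding proteins, with heights chosen for legibility). Dotted lines mark 1.5-fold, which *Igfbp6* at 0.67 exceeds, while both ligands lie to the left of 0. Of these, *Igf2* passed the minimum through miR-21+/+ alone and so had to lie there. Scaling to equal sums over all loci would move every line and bar by −0.63.

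Both ligands were lower in miR-21-/- glands, but *Igf2* passed the minimum through miR-21+/+ alone and so had to be lower. The largest upward shift among the scalings tried, 0.10, is too small to change either sign. *Igf1* (ENSMUSG00000020053.11, plus strand of chromosome 10, locus 87321554 to 87399853 in mm9) stood at 38.5 and 29.6 FPKM. Its log2 ratio was −0.38, and 8.84% of the named loci had a lower one. *Igf2* (ENSMUSG00000048583.9, minus strand of chromosome 7, 149836673 to 149856261), an imprinted fetal growth factor that stays low in most adult tissues, stood at 5.66 and 4.53 FPKM, a log2 ratio of −0.32. The ratio of *Igf1* to *Igf2* was 6.81 and 6.52, a log2 difference of −0.06, smaller than that of either ligand alone. Another transcript of the imprinted region, the non-coding *H19*, lay 72624 bases from *Igf2* on the same strand and stood at 87.4 and 113 FPKM. Its log2 ratio of 0.37 is opposite in sign to that of *Igf2*, but with equal sums over all loci both are negative (−0.26 for *H19* and −0.95 for *Igf2*). *H19* and the neighbours named further on were chosen after their values were seen.

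The receptors differed in sign, except with equal sums over all loci, where both were lower. *Igf1r* (ENSMUSG00000005533.8, plus strand of chromosome 7, 75096782 to 75378595), the signalling receptor, stood at 5.10 and 6.88 FPKM, a log2 ratio of 0.43. A second row with the name *Igf1r* at the same locus held 0.224 and 0.207 FPKM. *Igf2r* (ENSMUSG00000023830.7, minus strand of chromosome 17, 12875272 to 13061009) stood at 17.6 and 15.7 FPKM, a log2 ratio of −0.17. The table gives *Igf2r* the same locus as *Airn*, the antisense transcript that silences its paternal copy. The GENCODE genes overlap over 28354 bases without sharing exon bases. Neither the use of strand in the counting nor the gene annotation behind it is stated. How reads inside the overlap were assigned is therefore unknown. *Airn* stood at 7.15 and 6.23 FPKM, a log2 ratio of −0.20, and the ratio of *Igf2r* to *Airn* was 2.46 and 2.52. *Igf2r* exceeded *Igf1r* 3.46-fold and 2.28-fold, which is unaffected by any scaling of the columns.

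Binding protein mRNA summed to 847 and 951 FPKM, against 44.2 and 34.1 FPKM for the ligands together. The ratio of the sums was 19.2 and 27.9. Of the 6 binding proteins, 3 were higher and 3 were lower in miR-21-/- glands (median log2 ratio 0.01), and with equal sums over all loci *Igfbp6* alone was higher.

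*Igfbp6* (ENSMUSG00000023046.6, plus strand of chromosome 15, 101974617 to 101993867), which binds IGF2 in preference to IGF1, had the highest ratio of the 10 genes. It stood at 87.7 and 139 FPKM, 1.59-fold higher, with a log2 ratio of 0.67. Of the named loci, 6.47% had a larger absolute log2 ratio. The value carries a limit of annotation. The table joins *Igfbp6* in a single locus with *Soat2*, a cholesterol acyltransferase that begins 1014 bases downstream on the same strand and shares no exon bases with it in GENCODE. A row named *Soat2* at that locus held 68.5 and 111 FPKM, a log2 ratio of 0.70, and a second *Soat2* row held 0.635 and 0.600 FPKM. The ratio of *Igfbp6* to the higher *Soat2* row was 1.28 and 1.25, and the log2 ratio of their sum was 0.68. How reads of this locus were divided between the rows is not given in the sources used here.

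*Igfbp5* (ENSMUSG00000026185.8, minus strand of chromosome 1, 72904383 to 72921530), a matrix-associated binding protein known for its rise in the involuting gland, followed. It stood at 174 and 244 FPKM, a log2 ratio of 0.49, and 11.2% of the named loci had a larger absolute ratio. The difference of 69.9 FPKM was the largest of the 10 genes in FPKM.

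*Igfbp2* (ENSMUSG00000039323.11, plus strand of chromosome 1, 72871077 to 72899045), a carrier also secreted by adipocytes, lies tail to tail with *Igfbp5*, 5457 bases away. It was lower in miR-21-/- glands, with 11.9 and 9.89 FPKM and a log2 ratio of −0.26. The ratio of *Igfbp5* to *Igfbp2* was 14.7 and 24.7, a log2 difference of 0.75 between these neighbours that no scaling of the columns can alter.

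The other binding proteins were close to equal in both genotypes without scaling. With equal sums over all loci their log2 ratios were −0.67 (*Igfbp7*), −0.68 (*Igfbp4*) and −0.56 (*Igfbp3*). *Igfbp7* (ENSMUSG00000036256.6, minus strand of chromosome 5, 77739509 to 77837230), a vascular matrix protein with low affinity for IGF, had the highest level of the axis, at 294 and 285 FPKM. Its log2 ratio was −0.04. Its locus in the table includes the neighbouring *Polr2b*, which shares 85 exon bases with it and stood at 19.2 and 18.6 FPKM, also a log2 ratio of −0.04. *Igfbp4* (ENSMUSG00000017493.5, plus strand of chromosome 11, 98901367 to 98914567), an inhibitor of IGF action that is removed by the protease PAPP-A, stood at 255 and 247 FPKM, a log2 ratio of −0.05. *Igfbp3* (ENSMUSG00000020427.5, minus strand of chromosome 11, 7106096 to 7113926), the main carrier in serum, stood at 24.1 and 25.3 FPKM, a log2 ratio of 0.07. The ratio of *Igfbp7* to *Igfbp4* was 1.15 and 1.16.

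As shares of the binding protein sum, *Igfbp6* made up 10.3% and 14.6%, and *Igfbp5* 20.6% and 25.7%. The shares of *Igfbp7* were 34.7% and 30.01%, and those of *Igfbp4* 30.1% and 26.0%, although their own FPKM values differed by under 10 FPKM. The smallest shares were those of *Igfbp3*, at 2.84% and 2.66%, and *Igfbp2*, at 1.40% and 1.04%.

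**Figure D3:**
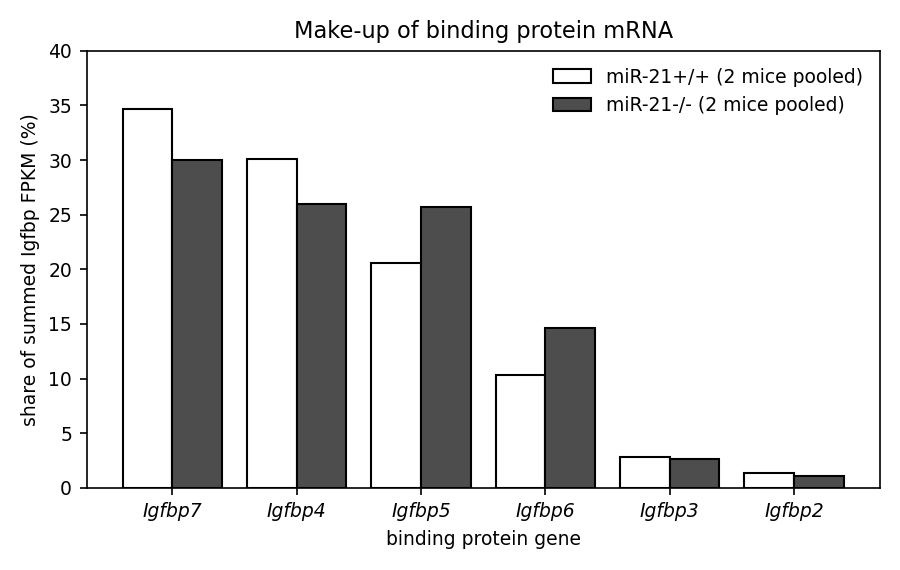
Share of each gene in the summed FPKM of the 6 binding proteins, in percent, with open bars for miR-21+/+ and filled bars for miR-21-/- glands (2 mice in each, combined by the authors, no error available). *Igfbp7* has the largest share in both genotypes, while the bars of *Igfbp5* and *Igfbp6* are the only ones that are taller in miR-21-/- glands.

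The sequences upstream of *Igf1*, *Igfbp5* and *Igfbp6* are shown because these genes had the lowest and the 2 highest log2 ratios of the axis. Each is the 250 bases before the RefSeq start site (GRCm38.p6) in the direction of transcription, with CG dinucleotides, the target of DNA methylation, in capitals. They lie at chr10:87860861-87861110 (plus strand), chr1:72874866-72875115 (minus strand) and chr15:102143936-102144185 (plus strand).
Igf1: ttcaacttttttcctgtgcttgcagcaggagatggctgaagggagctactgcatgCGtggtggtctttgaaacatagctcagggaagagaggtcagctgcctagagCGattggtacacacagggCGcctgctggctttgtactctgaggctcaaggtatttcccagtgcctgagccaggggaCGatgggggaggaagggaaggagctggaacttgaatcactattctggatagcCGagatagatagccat
Igfbp5: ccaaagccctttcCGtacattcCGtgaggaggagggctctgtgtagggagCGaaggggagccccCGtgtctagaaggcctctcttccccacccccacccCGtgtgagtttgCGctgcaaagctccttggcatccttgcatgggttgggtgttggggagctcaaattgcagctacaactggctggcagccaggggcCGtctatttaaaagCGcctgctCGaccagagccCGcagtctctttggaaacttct
Igfbp6: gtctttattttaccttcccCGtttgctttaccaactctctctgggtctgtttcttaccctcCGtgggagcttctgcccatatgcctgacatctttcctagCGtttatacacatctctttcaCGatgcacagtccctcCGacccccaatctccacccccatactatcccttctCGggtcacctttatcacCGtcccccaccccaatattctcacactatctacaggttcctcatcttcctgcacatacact
They hold 5, 10 and 7 CG dinucleotides, against a median of 6 in the same 250 bases of all 32851 windows in the RefSeq table. *Igf1r*, with 42, *Igfbp3*, with 32, and *Igf2r*, with 27, have the most in the axis. The GC content was 52.8%, 58.8% and 49.6% for the 3 sequences shown, against a median of 52.4%, and 77.6% for *Igf1r*.

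Both strands of the 14 promoter windows of the 10 genes, which include 50 bases after the start site, were searched for the STAT binding motif named GAS, TTCNNNGAA. It occurred in 0 of them, against 8.30% of all windows. Sites outside these short windows were not searched, so this does not show that a gene lacks GAS sites. For *Igf1*, the paper reports more STAT5A binding at promoter GAS sites after prolactin treatment of cultured primary mammary cells. The forkhead motif GTAAACA, the target of FOXO factors that insulin and IGF1 signals switch off, occurred in 0 of the 14 windows, against 3.65%. The TATA motif TATAAA occurred in 2, against 13.6%. These were *Igfbp4* (chr11:99041216-99041221), at position −28 from the start site, and *Igfbp6* (chr15:102144038-102144043), at −148 and on the opposite strand, where it reads TTTATA. Both are shown 5′ to 3′ along the plus strand, in which the genes are read, with the match in capitals.
Igfbp4: agggggccggTATAAAgtcccgggag
Igfbp6: tttcctagcgTTTATAcacatctctt
Among the other pathway genes, 44 of which have windows in that table, 6 held the GAS motif. The 8.30% counts windows, and a gene can have several, so it is no like share for this count of genes. Nothing is read from the count. Of the 6, *Akt2* (log2 ratio −0.33), *Gab1* (0.52), *Mtor* (−0.17) and *Pdpk1* (0.003) are not shown. Shown along the plus strand, with the match in capitals, are those of a serum carrier and of a gene of the growth hormone list. They are *Igfals*, the acid-labile subunit that completes the serum IGF complex, with a match in each of its 2 windows (chr17:24877608-24877616 and chr17:24878173-24878181), and *Cish*, a feedback inhibitor of STAT5 signals, with 2 in 1 window (chr9:107296659-107296667 and chr9:107296670-107296678).
Igfals, upstream window: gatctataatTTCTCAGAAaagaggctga
Igfals, downstream window: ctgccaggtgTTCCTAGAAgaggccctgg
Cish, first match: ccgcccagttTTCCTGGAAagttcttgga
Cish, second match: tcctggaaagTTCTTGGAAatctgtcaaa
Their log2 ratios had opposite signs, since *Igfals* stood at 13.3 and 8.85 FPKM (log2 ratio −0.59) and *Cish* at 3.31 and 6.23 FPKM (log2 ratio 0.91). A match of letters is not a binding site, and none was measured in these mice.

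The genes around the axis were examined as 7 lists with 59 genes, of which 44 exceeded 5 FPKM in at least one genotype. Of these, 7 were 1.5-fold or more higher in miR-21-/- glands, but 3 of the 7 (*Cish*, *Enpp1* and *Wisp2*) passed the minimum through miR-21-/- alone and so had to be higher. Among the 41 genes above 5 FPKM in both genotypes, 4 were higher (9.76%, against 2.62% of the named loci with the same minimum) and 3 were lower (7.32%, against 3.03%). The median log2 ratio was 0.03 over the 44 and −0.0031 over the 41. Of the genes higher in the lists and marker sets, those with a log2 ratio under 0.63 turn lower with equal sums over all loci. Upstream of *Igf1*, 6 of 6 genes of the growth hormone signal passed the minimum. Of these, 5 were higher, against 43.1% of the named loci, with a median of 0.32, or 0.30 without *Cish*. *Ghr*, the growth hormone receptor, was the exception, at 237 and 184 FPKM with a log2 ratio of −0.36, near that of *Igf1*. *Stat5a* stood at 22.8 and 39.0 FPKM (log2 ratio 0.78) and *Stat5b* at 20.5 and 26.0 FPKM (0.34). With *Cish*, which had to be higher, *Stat5a* made up the 2 genes past 1.5-fold in this list. Among the 5 above the minimum in both genotypes, 1 was 1.5-fold or more higher (20%, against 2.62% of the named loci). With equal sums over all loci, *Stat5a* and *Cish* alone stay higher in this list.

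Of the carriers, *Igfbp1* was listed at 0 in both genotypes and *Igfals* was the only 1 of 2 above the minimum. Among 8 proteases that cut binding proteins and their inhibitors, 4 passed the minimum, with a median of −0.14. *Htra1*, a serine protease that cuts IGFBP5 among others, stood at 86.1 and 118 FPKM, a log2 ratio of 0.46. *Stc2*, an inhibitor of PAPP-A, stood at 44.7 and 26.8 FPKM, a log2 ratio of −0.74. *Adam12*, a metalloprotease for IGFBP3 and IGFBP5, was 2-fold or more lower, at 26.3 and 12.5 FPKM (−1.08). The 1 gene past 1.5-fold in the other direction was *Adamts1*, at 11.7 and 18.97 FPKM (0.69), named after its value was seen. *Pappa* itself was under the minimum at 1.14 and 0.765 FPKM.

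Downstream of the receptor, 12 of 14 adaptors and brakes passed the minimum, 6 higher and 6 lower, with a median of 0.02, or −0.02 without *Enpp1*. *Grb2* stood at 27.4 and 25.5 FPKM (−0.10) and *Grb10*, an imprinted inhibitor of the receptor, at 30.3 and 22.4 FPKM (−0.44). *Shc1* is merged with *Pygo2* in the table, at 40.5 and 43.7 FPKM (0.11). The 2 past 1.5-fold were *Irs1*, the main docking protein of the receptor, at 16.2 and 24.9 FPKM (0.61), and *Enpp1*, at 4.54 and 8.10 FPKM (0.83), both named after their values were seen. *Enpp1* passed the minimum through miR-21-/- alone and so had to be higher. Among the 11 genes above it in both genotypes, 1 was 1.5-fold or more higher (9.09%, against 2.62% of the named loci) and 0 were lower (against 3.03%).

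In the relay from PI3K through AKT to mTOR, 17 of 17 genes passed the minimum, 6 higher and 11 lower. Without scaling 0 passed 1.5-fold, against 3.85% of the named loci higher and 4.32% lower. The log2 ratios ran from −0.33 to 0.51, with a median of −0.05. With equal sums over all loci, a shift of −0.63, the 11 lower genes and *Pdpk1* (0.003 unscaled) are all past 1.5-fold lower. *Akt2*, the isoform of fat and muscle, stood at 107 and 84.6 FPKM (−0.33) and *Eif4ebp1*, a translation repressor under mTOR, at 113 and 93.9 FPKM (−0.27). *Pik3r2* is merged with *Ifi30*, at 73.4 and 68.3 FPKM (−0.10). The 3 IGF2 mRNA binding proteins were all under 5 FPKM, with *Igf2bp2* at 2.51 and 2.15, *Igf2bp3* at 0.874 and 0.934 and *Igf2bp1* at 0.0593 and 0.0321 FPKM.

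Proteins that share the IGFBP domain but are no classical binding proteins were listed too. Of 9, 4 passed the minimum and were higher (against 43.1% of the named loci), with a median of 0.81. *Wisp2* passed through miR-21-/- alone and so had to be higher, and the median of the other 3 was 0.42. *Nov*, under the minimum in both genotypes and named after its value was seen, stood at 4.28 and 1.66 FPKM (−1.37). *Ctgf*, a connective tissue growth factor, stood at 11.7 and 26.9 FPKM (1.20), *Wisp2* at 2.92 and 7.68 FPKM (1.39), *Cyr61* at 19.9 and 26.6 FPKM (0.42) and *Crim1* at 10.9 and 11.5 FPKM (0.09).

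**Figure D4:**
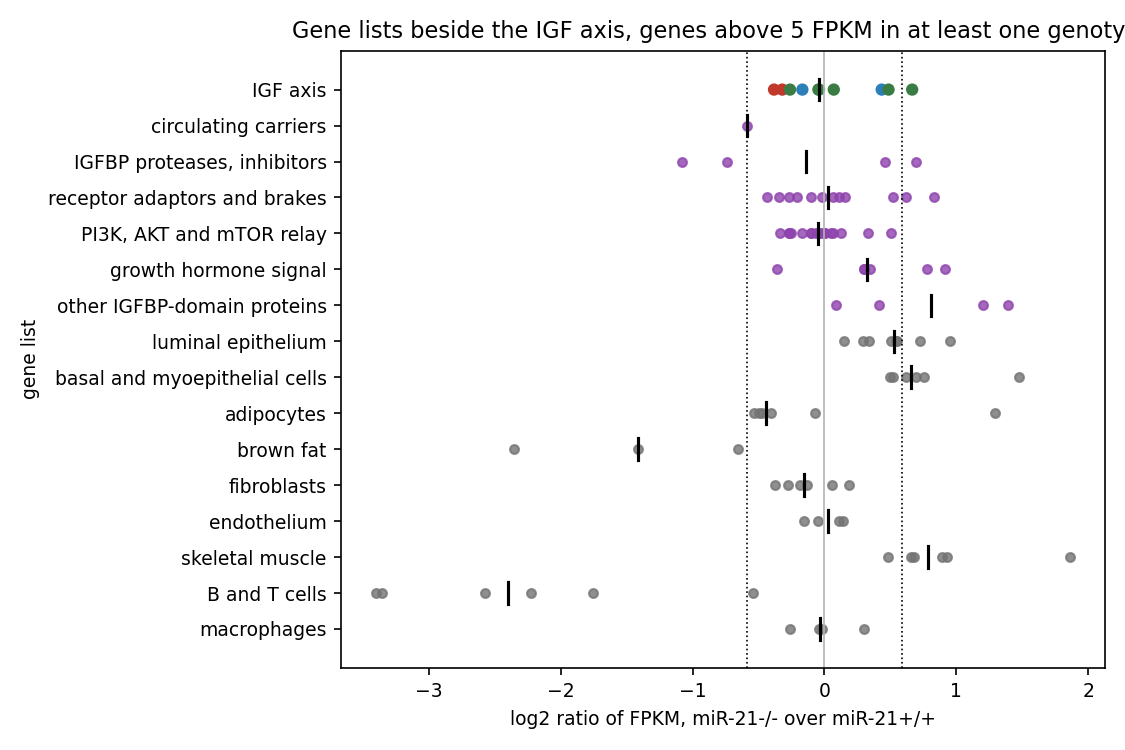
Log2 ratio of FPKM, miR-21-/- over miR-21+/+, for each gene above 5 FPKM in at least one genotype, with the IGF axis on top (red ligands, blue receptors, green binding proteins), lists of the pathway in purple and cell type lists in grey; the black bar is the median of a list and dotted lines mark 1.5-fold. Adipocyte genes have a median of −0.44 and basal and myoepithelial genes of 0.66, on either side of the IGF axis at −0.04. Scaling to equal sums over all loci would shift every point by −0.63.

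The cell type markers of the tissue also differed between genotypes. Of the named loci above the minimum, 43.1% were higher and 56.9% lower. With equal sums over all loci, *Krt8* (log2 ratio 0.72 unscaled) and *Elf5* (0.95) alone stay higher among luminal markers. Among basal markers *Krt14*, merged with *Krt16* (0.76), *Trp63* (0.70) and *Oxtr* (1.47) alone do, and among muscle markers all but *Mylpf* (0.48). Markers of luminal epithelium were higher in 8 of 8 cases (summed FPKM 648 and 883, median log2 ratio 0.52, *Krt19* 223 and 247 FPKM and *Krt18* 148 and 216 FPKM). Those of basal and myoepithelial cells were higher in 6 of 6 (310 and 498, median 0.66, *Acta2* 222 and 341 FPKM and *Krt5* 29.8 and 42.7 FPKM). Adipocyte markers were lower in 5 of 6 (10330 and 7530, median −0.44, *Fabp4* 7677 and 5523 FPKM and *Adipoq* 1207 and 853 FPKM, with *Lep* the exception at 27.7 and 67.9 FPKM). Brown fat markers above the minimum were lower in 3 of 3 (median −1.41, *Cox8b* 123 and 77.6 FPKM and *Cidea* 52.3 and 19.7 FPKM). The sum of that list, 220 and 106 FPKM, also counts *Elovl3*, under the minimum at 1.69 and 0.268 FPKM. Those of B and T cells were lower in 6 of 6 (105 and 54.4, median −2.40, *Cd79a*, merged with *Arhgef1*, 70.3 and 48.3 FPKM and *Cd3g* 7.70 and 1.65 FPKM), but 5 of these passed the minimum through miR-21+/+ alone and so had to be lower, and *Cd79a*, the other, had a log2 ratio of −0.54. Skeletal muscle markers were higher in 6 of 6 (1023 and 1690, median 0.79, *Acta1* 328 and 526 FPKM and *Ckm* 214 and 338 FPKM), of which *Mb*, at 2.07 and 7.54 FPKM, passed through miR-21-/- alone, and the median of the other 5 was 0.68. Fibroblast markers had a median of −0.16 (4956 and 4388, *Col3a1* 1999 and 1654 FPKM and *Col1a2* 933 and 852 FPKM) and endothelial markers of 0.03 (118 and 123, *Cdh5* 43.8 and 47.3 FPKM and *Pecam1* 39.7 and 43.7 FPKM). Macrophage markers had a median of −0.03 (380 and 383, *Cd68*, merged with *Eif4a1* and *Senp3*, 255 and 252 FPKM and *Mrc1* 50.3 and 61.8 FPKM). No defining marker was at 0. The part of these tissue differences in the IGF axis values was not tested. The locus that joins *Mir21* and its host gene *Vmp1* stood at 42.5 and 68.2 FPKM, which measures the long host transcript and does not check the genotype labels.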

How the data were processed

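Libraries of mammary gland poly(A) RNA from 2 mice per genotype gave single-end reads. TopHat was used by the authors for alignment (mm9) and Cufflinks for the FPKM estimates, and the submitters' processing notes also name CASAVA. Versions, gene annotation and normalization options are not given in the sources used here. The deposited table holds 1 FPKM value per locus and genotype, combining 2 mice. It carries no read counts, so the depth is unknown. Its columns with the authors' fold changes, test statistics, p-values and q-values were not used. Log2 ratios were computed as plain ratios of the FPKM values, without scaling or pseudocount. Background shares cover named loci above 5 FPKM in at least one genotype and above 0 in both (9713; 1 locus was at 0 in one genotype). No test was run. A locus start in the table counts from 0 and is printed counting from 1. The members and lists were chosen with earlier results of these data known. Named are all members, up to 3 genes of highest mean FPKM per pathway list plus any past 2-fold, and up to 2 per marker list. Others were named after their values were seen. Of the planned sequence features, protein identity between members was not run. Scripts were tested on simulated data and used Python 3.11.15, numpy 2.4.6, pandas 2.3.3 and matplotlib 3.10.9. Genes and 3′ UTRs are from GENCODE (mm9), promoters and miR-21 from RefSeq (GRCm38.p6), with 10 of 10 members matched in each.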

Additional observations from a re-analysis of the deposited data

Results flagged for a closer look

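A signal appeared in a row outside the 10 genes: the row named *Soat2* at the locus of *Igfbp6*, at 111 FPKM in miR-21-/- against 68.5 FPKM in miR-21+/+ glands. Its log2 ratio of 0.70 lay close to the 0.67 of *Igfbp6*, and how the reads of this locus were divided was not tested.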

How the results depend on the processing

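No paired analysis was possible because each genotype has a single deposited value, and the fits without each mouse were not run for the same reason. Of 120 member values under the alternatives, 110 moved by less than 0.1 in log2 ratio, a limit set without a known spread, and 5 changed sign. The count of 110 was largely fixed in advance and does not measure robustness. A change of FPKM minimum leaves each ratio as it is, and the shift over named loci, 0.0988, lies just under the limit. The 10 values that moved further were those with both columns scaled to equal sums over all loci, which shifts every log2 ratio by −0.63. The member median was then −0.67, with 0 members 1.5-fold or more higher, 6 lower, and 1 lower at 2-fold (*Igf1*, −1.01). *Igf1r* (−0.20), *Igfbp3* (−0.56) and *Igfbp5* (−0.14) changed sign there, while *Igfbp6* was at 0.03. Equal sums over named loci shift by 0.10 and turned *Igfbp4* and *Igfbp7* to 0.05 and 0.06. Summing the *Igfbp6* and *Soat2* rows, chosen after seeing the data, left the member counts as they were. Leaving out list genes that pass the minimum through one genotype alone, also chosen later, took the pathway genes 1.5-fold or more higher from 7 to 4 and left those lower at 3. The background counts follow the FPKM minimum. Main counts were 374 higher and 420 lower at 1.5-fold and 121 and 143 at 2-fold. With more than 1 FPKM these were 742, 858, 275 and 341, without a minimum 1754, 1921, 865 and 918, and with both genotypes above 5 FPKM 237, 274, 58 and 58.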
